A study of Mus musculus with 7 samples.

Results

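Amino acid transporters are the membrane carriers that bring amino acids into the cell and exchange them across membranes. The genes described here were taken by array gene symbol, as those starting with Slc1a, Slc3a, Slc6a, Slc7a, Slc36a, Slc38a or Slc43a, without the dopamine transporter gene Slc6a3. The rule found 42 genes with 66 probe sets among 12393 genes with 22626 tested probe sets, and of several probe sets for a gene the one brightest on average across the 7 arrays stands for it. By family they were 6 Slc1, 2 Slc3, 14 Slc6, 13 Slc7, 6 Slc38 genes and 1 Slc43 gene, and no Slc36a gene was analysed here. The name of the group did not suit every member: Slc6a2 and Slc6a4 encode the noradrenaline and serotonin transporters, Slc6a8 encodes the creatine transporter, and Slc43a3 encodes a carrier of purine nucleobases.

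The cells were MN9D cells made to overexpress mouse hemoglobin, both its alpha and its beta chain (4 arrays), and control MN9D cells with an empty vector (3 arrays). MN9D is a mouse dopaminergic neuroblastoma line, and both groups share that background. Of 8 arrays hybridised, 1 control did not meet the submitters' standard and is not analysed here. The labels do not say whether cells were cloned or pooled, which promoter drove the chains, or whether replicates were separate cultures, so the spread behind each p-value is that of these arrays and could be technical in part.

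Carriers of amino acids fall into families that differ in what drives transport. Slc1 and Slc6 carriers and most Slc38 carriers couple uptake to sodium, whereas many Slc7 carriers exchange one amino acid for another and reach the plasma membrane only when paired with a heavy chain, Slc3a1 or Slc3a2. In neural tissue, Slc1 carriers clear glutamate, Slc6 carriers clear GABA and glycine, and Slc38 carriers move glutamine.

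All values are RMA expression values on the log2 scale, and differences are globin-labelled minus empty vector, with limma's standard error (SE) after ± unless an SD is named (n = 4 and n = 3 arrays). Genes were called changed at a limma adjusted p under 0.05 over all 22626 probe sets. The 3 probe sets shared by Hba-a1 and Hba-a2, the alpha-globin genes, rose by 5.16 to 7.15, and the probe sets for Hba-a2 alone (-0.03) and Hba-a1 alone (0.03) did not pass. Meanwhile 1 of the probe sets for adult beta-globin rose, by 0.34 (Hbb-b2). It was dim, with means of 6.28 in empty vector and 6.61 in globin-labelled arrays, where the arrays' 25th percentiles were 6.78 to 6.86. The probe set shared by the adult beta-globin genes (0.12) and another of Hbb-b2 (-0.05) did not pass. The signal of the labelled beta chain thus did not rise at a like size. The groups differed over much of the transcriptome, and empty vector array 1 and globin-labelled array 4 lay together at one end of the second principal component (5.96% of the variance). The 3' minus 5' difference of the control probe sets for pyruvate carboxylase was 0.01 ± 0.06 (SD, n = 4) in globin-labelled arrays and -0.32 ± 0.08 (SD, n = 3) in empty vector arrays (two-sided exact permutation p = 0.0286, the smallest that 35 splits allow, adjusted over 4 transcripts 0.114). Those of beta-actin, Gapdh and the transferrin receptor differed by 0.02 at most, and the part of this control in the results was not tested.

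Of 27 markers of 5 other cell types, 3 passed (11.1%, beside 40.7% of all genes). Below the 25th percentile of mean signal, where 10.6% of all genes were called, lay 17 of the 27. Aldoc, on the astrocyte list, rose by 1.46, Mbp, on the oligodendrocyte list, fell by 0.70, and Tyrobp, on the microglia list, rose by 0.19. The summed log2 signal of the 6 astrocyte markers was 42.0 to 42.5 in globin-labelled arrays and 40.7 to 41.0 in empty vector arrays, and the 5 apart from Aldoc differed by -0.13 to 0.09. That of the 5 measured oligodendrocyte markers was 29.7 to 30.1 in globin-labelled arrays and 30.4 to 30.7 in empty vector arrays, also without overlap. The 4 apart from Mbp differed by -0.07 to 0.10 and did not pass. The sums of the microglia, fibroblast and erythroid markers overlapped between the groups. Of 8 dopaminergic markers 2 were called, both lower (25%, beside 40.7% of all genes). Th, tyrosine hydroxylase, which had the highest mean of the 8, fell by 0.70 ± 0.05 and Ddc fell by 0.22 ± 0.05 (limma). Pitx3 (0.06) and Nr4a2 (-0.13) lay above the 25th percentile of mean signal and did not pass. The other 4 (Slc6a3, Foxa2, Lmx1b and En1) lay below it and did not pass. The part of these markers in the results was not tested.

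Of the 42 transporter genes, 16 were called, 9 higher and 7 lower in globin-labelled cells. That share, 38.1%, was near the background, since 40.7% of all genes were called (20.6% higher and 20.1% lower). Over probe sets the background was 39.5%. The median difference was 0.04 over the transporters and 0.02 over all genes. The sizes of the called transporters ran from 0.13 to 0.79, and only the fall of Slc6a13 passed 1.5-fold, where 5.28% of all genes were called past that fold. The groups of arrays did not overlap for 19 of the 42, or 45.2%, beside 45.7% of all genes. In RNA of whole cultures, fewer cells of a kind and less RNA per cell cannot be told apart.

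**Figure D1:**
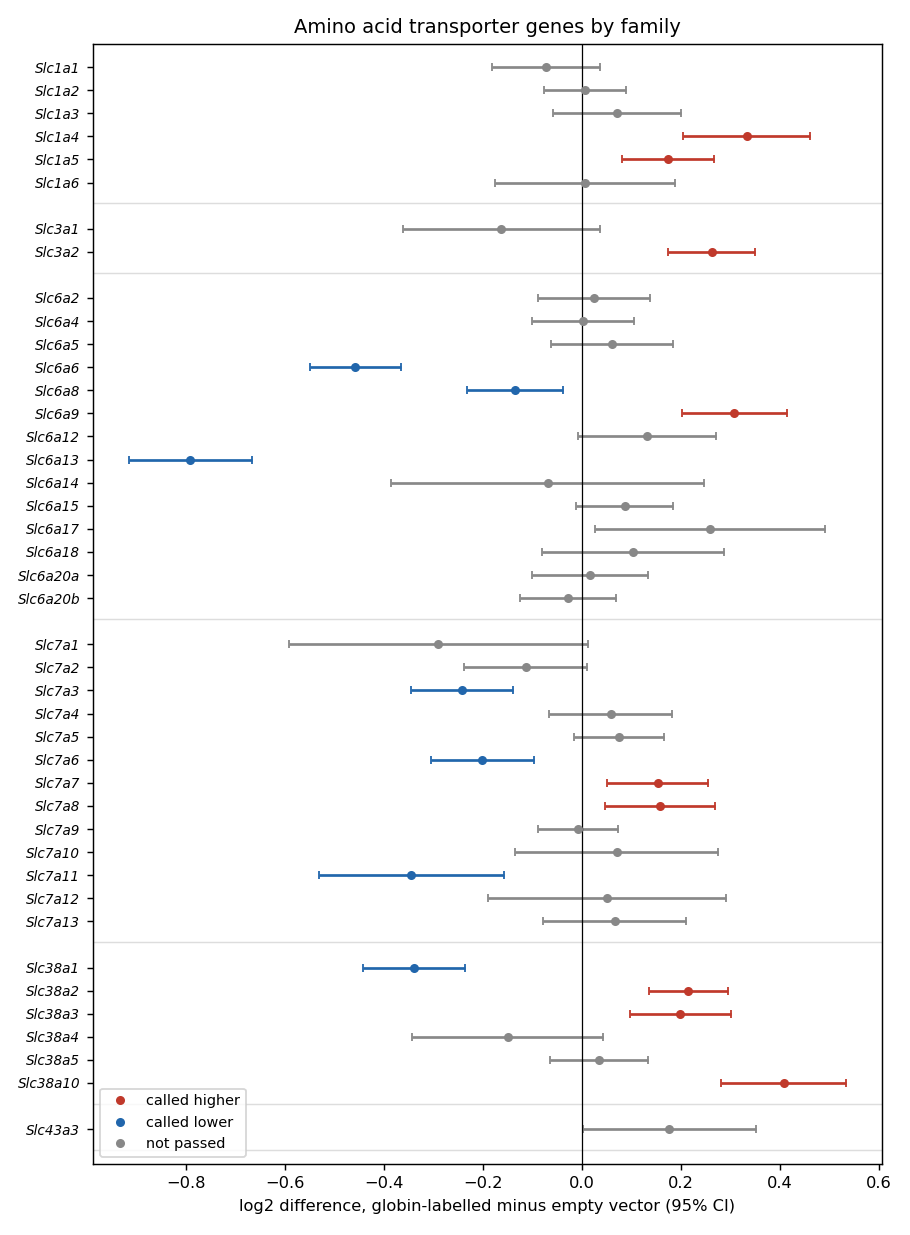
Log2 difference, globin-labelled minus empty vector, of each of the 42 transporter genes with its 95% confidence interval, ordered by family (rows), red for called higher, blue for called lower and grey for not passed. The calls run both ways in the Slc6, Slc7 and Slc38 families, and Slc6a13 at -0.79 lies farthest from 0.

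The 18 transporters whose mean signal lay below the 25th percentile of the probe sets did not pass, with differences from -0.16 to 0.18 (limma; 1 of the 18 had an unadjusted p under 0.05). Among all genes below that percentile 10.6% were called. The other 24 held all 16 calls (66.7%), beside 49.4% of all genes above it. The dim ones included the glial glutamate transporter gene Slc1a3, the serotonin and noradrenaline transporter genes, and the epithelial carriers Slc6a14 and Slc6a18. Background was not measured, so for these genes the array gives differences of dim signal.

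**Figure D2:**
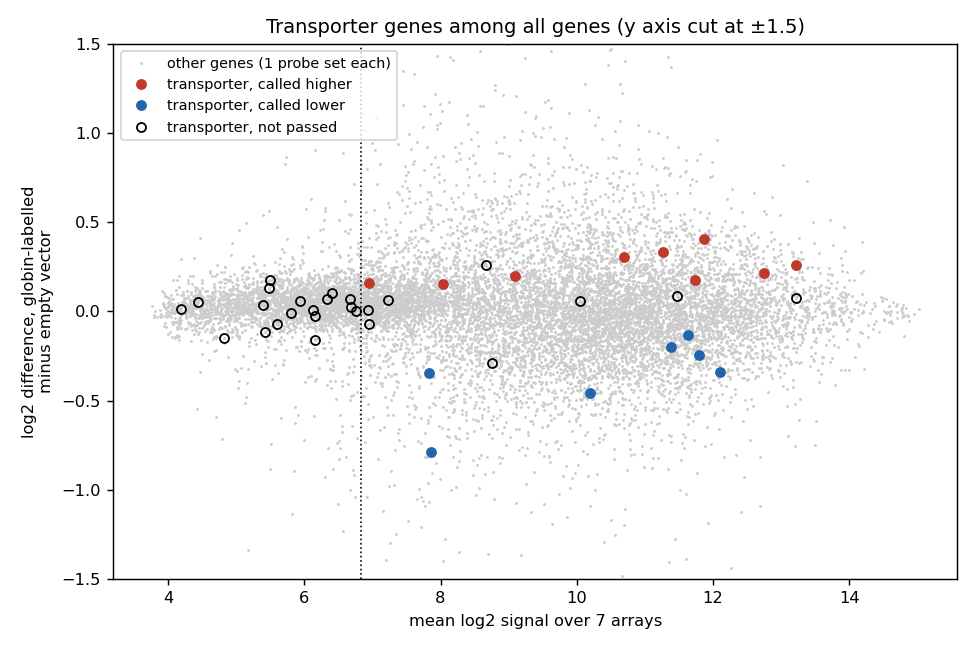
Log2 difference, globin-labelled minus empty vector, against mean log2 signal over the 7 arrays, for the 42 transporters (large points) and all other genes (grey), with the 25th percentile of mean signal as a dotted line. All 16 called transporters lie to the right of the line, on both sides of 0.

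The promoters that hold the letters of an amino acid response element are shown here, because that element is the site through which the transcription factor ATF4 is known to raise carriers when amino acids are scarce. The letters TGATGNAAN were searched on both strands of RefSeq promoters (GRCm38.p6, 250 bases before to 50 after a gene's start). Of 27 transporters with a promoter in that table, 3 held the letters (11.1%), beside 3.11% of 9882 measured genes with a promoter. A gene counted if any of its promoters held them. By promoter it was 4 of 46 for the transporters, beside 1299 of 32851 (3.95%) for all genes listed there. All 3 genes were called, Slc7a11 lower and Slc1a4 and Slc7a7 higher, but all 3 lay above the 25th percentile of mean signal, where 66.7% of the transporters and 49.4% of all genes were called, so nothing is read from that count. Capitals mark the matched letters, and a match is not evidence of binding.
Slc7a11, chr3:50443564-50443863, minus strand: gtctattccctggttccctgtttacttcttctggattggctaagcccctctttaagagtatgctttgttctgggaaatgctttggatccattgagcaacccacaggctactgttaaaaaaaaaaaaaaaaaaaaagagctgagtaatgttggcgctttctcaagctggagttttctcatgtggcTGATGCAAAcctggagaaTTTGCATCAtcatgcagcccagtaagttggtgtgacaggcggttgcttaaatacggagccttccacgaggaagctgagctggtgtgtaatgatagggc
Slc1a4, chr11:20332664-20332963, minus strand: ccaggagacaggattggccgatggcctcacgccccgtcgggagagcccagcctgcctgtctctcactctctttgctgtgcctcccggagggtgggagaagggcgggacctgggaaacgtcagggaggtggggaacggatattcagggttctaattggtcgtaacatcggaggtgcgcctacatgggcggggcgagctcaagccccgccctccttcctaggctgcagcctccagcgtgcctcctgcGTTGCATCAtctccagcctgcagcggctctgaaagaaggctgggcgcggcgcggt
Slc7a7, chr14:54417895-54418194, minus strand: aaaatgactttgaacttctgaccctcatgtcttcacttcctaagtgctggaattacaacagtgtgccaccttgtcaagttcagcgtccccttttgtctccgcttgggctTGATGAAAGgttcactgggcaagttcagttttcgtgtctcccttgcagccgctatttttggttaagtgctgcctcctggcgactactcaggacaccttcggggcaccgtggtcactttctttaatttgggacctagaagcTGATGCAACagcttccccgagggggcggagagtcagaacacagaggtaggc
With the gene's start at 0, the matches of Slc7a11 begin at -66 on the forward and -48 on the reverse strand, facing each other, that of Slc1a4 begins at -5 on the reverse strand, and those of this Slc7a7 promoter begin at -141 and -1 on the forward strand. The rightmost Slc7a7 match also lies in a neighbouring annotated promoter of that gene, which overlaps this one.

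The Slc6 family held the largest change. Slc6a13 encodes GAT2, a carrier of GABA and taurine. Its signal was 7.63, 7.48, 7.51 and 7.45 on the globin-labelled arrays, against 8.29, 8.39 and 8.25 on the empty vector arrays. Every globin-labelled array lay well below every empty vector array, a fall by 0.79 ± 0.05 on the log2 scale, or 1.73-fold (limma adjusted p = 6.84e-06). Slc6a6, the taurine transporter gene, had 9.97, 9.97, 10.06 and 10.02 in globin-labelled cells and 10.49, 10.43 and 10.46 in empty vector cells. Those groups were also clearly apart, and Slc6a6 fell by 0.46 ± 0.04 (limma adjusted p = 2.94e-05). A second Slc6a6 probe set fell by 0.27 and the last, at -0.08, did not pass.

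Slc6a8, which imports creatine, had 11.59, 11.61, 11.53 and 11.55 in globin-labelled cells and 11.65, 11.76 and 11.71 in empty vector cells. The gap between the groups was narrow, with a difference of -0.13 ± 0.04 (limma adjusted p = 0.0325) that was no longer called without empty vector array 2 or 3 or globin-labelled array 3 or 4. The other Slc6a8 probe set fell further, by 0.45 ± 0.05. Slc6a9, the glycine transporter GlyT1, went the other way, with 10.88, 10.81, 10.82 and 10.77 in globin-labelled cells and 10.44, 10.57 and 10.53 in empty vector cells. It rose by 0.31 ± 0.05 (limma adjusted p = 7.09e-04), with no overlap, and its other probe set rose by 0.21.

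The remaining 10 Slc6 genes did not pass. Slc6a15, a neuronal carrier of branched-chain amino acids and proline, differed by 0.09 ± 0.04 (95% confidence interval -0.01 to 0.18), although its globin-labelled arrays all lay above the empty vector arrays. Slc6a17, a vesicular carrier of neutral amino acids, differed by 0.26 ± 0.10 (limma adjusted p = 0.0749). It was called without globin-labelled array 3, and also with globin-labelled array 4 and empty vector array 1 both left out. Slc6a12, the betaine and GABA transporter gene, stands next to Slc6a13 on chromosome 6 and differed by 0.13 ± 0.06. Of the 10 measured genes nearest to Slc6a13, 5 fell and 1 rose, with a median of -0.13. Beside them, 40.7% of all genes were called, 20.6% higher and 20.1% lower. Usp18, the other neighbour of Slc6a13, fell by 1.06. The others were Slc6a2 (0.02), Slc6a4 (0.00), the glycine transporter GlyT2 gene Slc6a5 (0.06), Slc6a14 (-0.07), Slc6a18 (0.10), the proline carrier gene Slc6a20a (0.02) and the related Slc6a20b (-0.03).

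In the Slc1 family the neutral amino acid exchangers rose and the glutamate carriers did not pass. Their signals differed as well, with the exchangers at the 82nd and 88th percentiles of mean signal and the glutamate carriers at the 17th to 26th. Slc1a4, or ASCT1, which exchanges serine, alanine and cysteine, had 11.48, 11.49, 11.35 and 11.29 in globin-labelled cells, against 11.03, 11.09 and 11.09 in empty vector cells. The groups were apart by more than the spread within either, and Slc1a4 rose by 0.33 ± 0.06 (limma adjusted p = 0.00136). Both of its other probe sets rose, by 0.25 and 0.39. Slc1a5, or ASCT2, a main route of glutamine into dividing cells, had 11.85, 11.77, 11.82 and 11.81 in globin-labelled cells, against 11.60, 11.63 and 11.69 in empty vector cells. Its rise of 0.17 ± 0.04 (limma adjusted p = 0.00801) was smaller, with groups that did not overlap, and was not called with globin-labelled array 4 and empty vector array 1 both left out (0.15, limma adjusted p = 0.0506). The glutamate transporter genes Slc1a1 (-0.07), Slc1a2 (0.01), Slc1a3 (0.07) and Slc1a6 (0.01) did not pass. Neither did the other probe sets of Slc1a1 and Slc1a3.

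Of the heavy chains, Slc3a2, also called CD98 or 4F2hc, had 13.34, 13.38, 13.31 and 13.33 in globin-labelled cells, against 13.04, 13.08 and 13.11 in empty vector cells. The arrays of each group lay close together and Slc3a2 rose by 0.26 ± 0.04 (limma adjusted p = 6.02e-04). Slc3a1, the heavy chain of kidney and gut, was dim and differed by -0.16 ± 0.09.

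The light chains that pair with Slc3a2 did not move with it as a set. Slc7a5, or LAT1, the exchanger of leucine and other large neutral amino acids, had 13.27, 13.25, 13.24 and 13.27 in globin-labelled cells, against 13.12, 13.19 and 13.23 in empty vector cells. The groups just failed to overlap, and the difference of 0.07 ± 0.04 did not pass (95% confidence interval -0.02 to 0.16, limma adjusted p = 0.171). Slc7a11, or xCT, which takes up cystine in exchange for glutamate, had 7.72, 7.82, 7.61 and 7.57 in globin-labelled cells, against 8.15, 7.85 and 8.08 in empty vector cells. Empty vector array 2 lay close to the globin-labelled arrays, and Slc7a11 fell by 0.34 ± 0.08 (limma adjusted p = 0.00869). That call was lost with globin-labelled array 4 and empty vector array 1 both left out (-0.25, limma adjusted p = 0.0879).

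Slc7a6, or y+LAT2, had 11.32, 11.36, 11.22 and 11.28 in globin-labelled cells, against 11.52, 11.44 and 11.53 in empty vector cells. It fell by 0.20 ± 0.05 (limma adjusted p = 0.00696), its other probe set, at -0.10, did not pass, and the call was lost with the same pair of arrays left out (-0.19, limma adjusted p = 0.0533). Slc7a7, or y+LAT1, a relative of Slc7a6 that also exchanges cationic for neutral amino acids, had 8.08, 8.10, 8.12 and 8.08 in globin-labelled cells and 8.02, 7.95 and 7.86 in empty vector cells. Its rise of 0.15 ± 0.05 (limma adjusted p = 0.0235) came with groups that nearly met. Slc7a8, or LAT2, had 6.99, 7.03, 7.09 and 6.97 in globin-labelled cells and 6.94, 6.79 and 6.85 in empty vector cells. That was a rise of 0.16 ± 0.05 (limma adjusted p = 0.0310) of a signal near the dim range, at percentile 26.5 of mean signal. Leaving out any of 4 single arrays (empty vector 2 or 3, globin-labelled 2 or 3) ended the call for Slc7a7 and for Slc7a8, and other eBayes settings and quantile normalization also ended it for Slc7a8. Slc7a10 (0.07), a carrier of small neutral amino acids including D-serine, did not pass.

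The cationic amino acid transporters, which work without a heavy chain and bring in arginine and lysine, had 1 call, a fall. Slc7a3, or CAT3, had 11.65, 11.72, 11.64 and 11.75 in globin-labelled cells, against 11.97, 11.96 and 11.87 in empty vector cells. These groups did not overlap and Slc7a3 fell by 0.24 ± 0.05 (limma adjusted p = 0.00242). Slc7a1, or CAT1, had 8.84, 8.82, 8.64 and 8.24 in globin-labelled cells and 8.84, 8.87 and 9.06 in empty vector cells, and its difference of -0.29 ± 0.13 did not pass. Globin-labelled array 4 lay below the others there. Slc7a2 (-0.11) and the related Slc7a4 (0.06), whose substrate is not settled, did not pass. Nor did Slc7a9 (-0.01), the cystine exchanger that pairs with Slc3a1, Slc7a12 (0.05) or Slc7a13 (0.07).

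In the Slc38 family, neighbours on chromosome 15 moved in opposite directions. Slc38a1, or SNAT1, a neuronal carrier of glutamine and alanine, had 11.99, 11.98, 11.95 and 11.91 in globin-labelled cells, against 12.37, 12.23 and 12.30 in empty vector cells. It fell by 0.34 ± 0.05 (limma adjusted p = 3.28e-04), and its groups were well apart. Slc38a2, or SNAT2, a carrier of the same kind that is known to be induced when amino acids are scarce, had 12.84, 12.86, 12.84 and 12.82 in globin-labelled cells, against 12.61, 12.64 and 12.62 in empty vector cells. The spread within each group was 0.01 (SD) and Slc38a2 rose by 0.21 ± 0.04 (limma adjusted p = 0.00111). Slc38a4, the next gene of that stretch, was dim and differed by -0.15 ± 0.09. Among the 10 measured genes nearest to Slc38a1, which include Slc38a2, the median difference was 0.17, with 5 higher and 0 lower (limma). The fall of Slc38a1 had the opposite sign to that median. Of all genes 40.7% were called in either direction, 20.6% higher and 20.1% lower. The called neighbours all went the same way, and whether neighbours move together was not tested.

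Slc38a10, a widely expressed member of the family, had 12.15, 11.97, 11.99 and 12.03 in globin-labelled cells, against 11.56, 11.71 and 11.62 in empty vector cells. It showed the largest rise among the transporters, by 0.41 ± 0.06 (limma adjusted p = 3.94e-04), with no overlap. Of its 6 other probe sets 5 rose, and 1 (-0.05) did not pass. The 10 genes nearest to it on chromosome 11 had a median of 0.25, with 6 higher and 0 lower. Beside them, 40.7% of all genes were called, 20.6% higher and 20.1% lower. Slc38a3, or SNAT3, which moves glutamine in either direction in glia and liver, had 9.25, 9.17, 9.16 and 9.12 in globin-labelled cells and 8.96, 9.03 and 8.94 in empty vector cells. Its rise was 0.20 ± 0.04 (limma adjusted p = 0.00683). Slc38a5 (0.03) did not pass, nor did Slc43a3 (0.18), the single Slc43 gene, whose 95% confidence interval ran from 0.00 to 0.35.

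**Figure D3:**
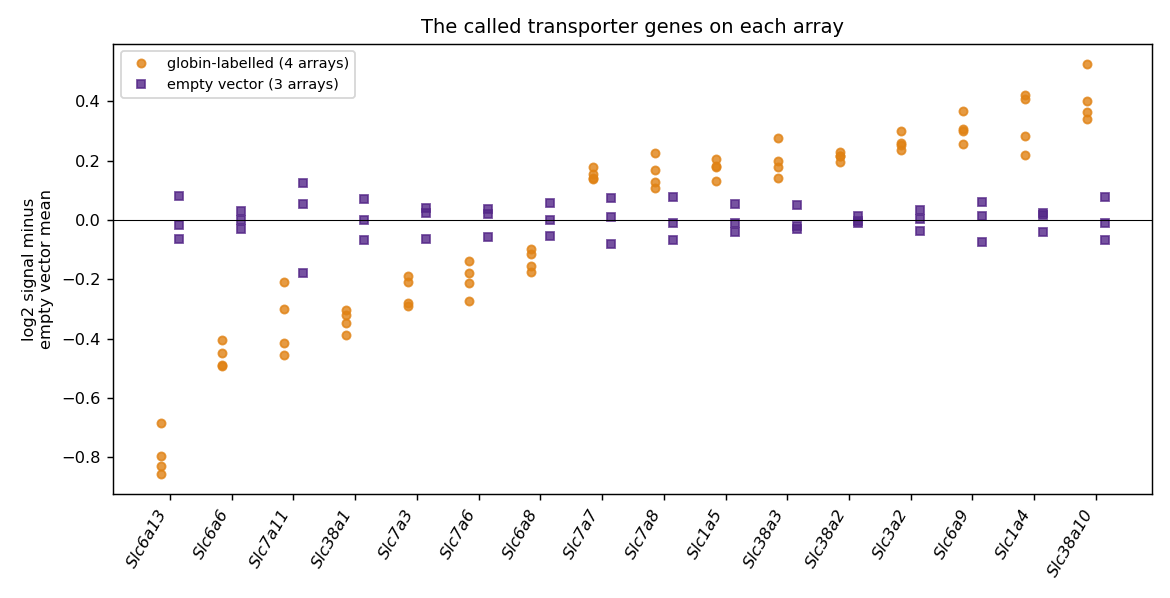
Log2 signal of each of the 16 called transporter genes on each array, minus the mean of the 3 empty vector arrays (y axis), with globin-labelled arrays as circles to the left and empty vector arrays as squares to the right for each gene. The groups do not overlap for any of these genes, and the gap is narrowest for genes such as Slc7a11, Slc6a8 and Slc7a8.

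Called probe sets of 1 gene did not oppose each other. The 6 called transporters with others had 13 further probe sets, of which 10 carried the same call, 3 did not pass (1 each of Slc6a6, Slc7a6 and Slc38a10) and 0 were called the other way. The 7 uncalled transporters with others had 11 further probe sets, and limma called 0 of them. For Slc6a8 the probe set chosen by the highest mean gave the smaller fall, so its size depends on the probe set.

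**Figure D4:**
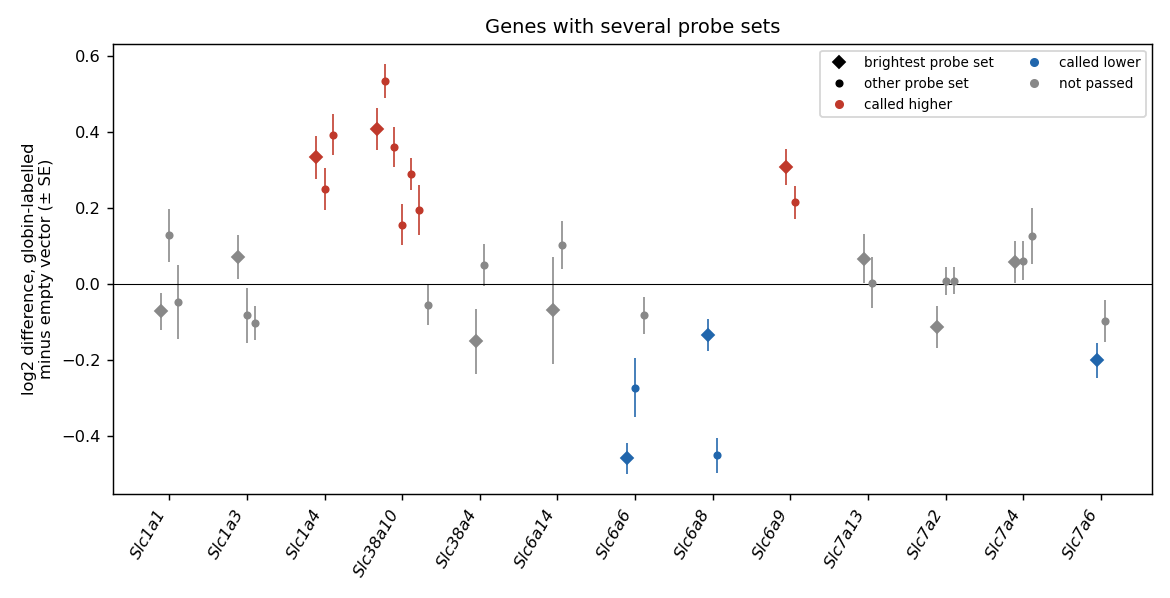
Log2 difference, globin-labelled minus empty vector, with SE, of every probe set of the 13 transporter genes that have several, with the brightest as a diamond. All but 1 of the Slc38a10 probe sets lie above 0, and the dimmer of the Slc6a8 pair lies below the brighter.

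Carriers of amino acids and peptides outside the 7 families had 5 of 14 measured members called, 1 higher and 4 lower (35.7%, median -0.04), near the background of 40.7%. Slc15a4, a lysosomal carrier of histidine and small peptides, fell by 0.45 ± 0.04 (limma adjusted p = 2.94e-05), Slc25a38, the mitochondrial glycine carrier, fell by 0.35 ± 0.05, and Slc66a1, which exports cationic amino acids from lysosomes, fell by 0.20 ± 0.04. Slc25a22, a mitochondrial glutamate carrier, rose by 0.24 ± 0.04. Of 10 measured partners and regulators of transporters 3 were called, 1 higher and 2 lower (30%, beside 40.7% of all genes). Sgk1, a kinase known to raise the surface level of several carriers, had 9.64, 9.72, 9.63 and 9.58 in globin-labelled cells, against 10.52, 10.48 and 10.51 in empty vector cells, and fell by 0.86 ± 0.04 (limma adjusted p = 9.56e-07). Pick1, a scaffold protein that binds transporters, rose by 0.35 ± 0.07. The probe sets of Nedd4l, a ubiquitin ligase that acts on carriers, were called in opposite directions, at -0.16 and 0.19.

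Enzymes that make or use the carried amino acids had 17 of 28 measured members called (60.7%, beside 40.7% of all genes). Of these 14 were higher and 3 lower, beside 20.6% and 20.1% of all genes, and the list's median was 0.17. Aldh18a1, of proline synthesis, rose by 0.56 ± 0.04, Bcat2, of branched-chain amino acid breakdown, by 0.60 ± 0.05, and Ckb, the brain creatine kinase, by 0.61 ± 0.06. Gad2, which makes GABA, fell by 0.85 ± 0.08 (limma adjusted p = 3.63e-05). Its signal was 7.52, 7.55, 7.49 and 7.71 in globin-labelled cells and 8.56, 8.26 and 8.43 in empty vector cells. Gad1, which also makes GABA, was dim, differed by 0.12 ± 0.06 and did not pass. Chosen after their values were seen, Gclc and Gclm, the subunits of the enzyme that starts glutathione synthesis from cysteine, fell by 0.29 ± 0.05 and fell by 0.16 ± 0.04. The serine and glycine synthesis genes Phgdh, Psat1, Psph, Shmt1 and Shmt2, also chosen after their values were seen, rose by 0.17 to 0.38, although 2 of the 4 Shmt1 probe sets did not pass.

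Of 15 genes of amino acid sensing and response 6 rose and 1 fell (46.7%, median 0.12). With both directions pooled, that share was near the 40.7% of all genes. It was also near the 49.4% of genes above the 25th percentile of mean signal, where all 15 lay. By direction, 20.6% of all genes were called higher and 20.1% lower, and the excess of rises was not tested. Trib3 and Ddit3, stress genes known to be induced by ATF4, rose by 0.33 ± 0.04 and 0.38 ± 0.06, Chac1, which degrades glutathione, by 0.26 ± 0.04, and Cebpb by 0.22 ± 0.04. The 1 fall was that of Nupr1, by 0.20 ± 0.05 (limma adjusted p = 0.00708). Atf4 itself (0.08 ± 0.04) and Asns (0.02 ± 0.04), the asparagine synthetase gene, did not pass on any of their probe sets.

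**Figure D5:**
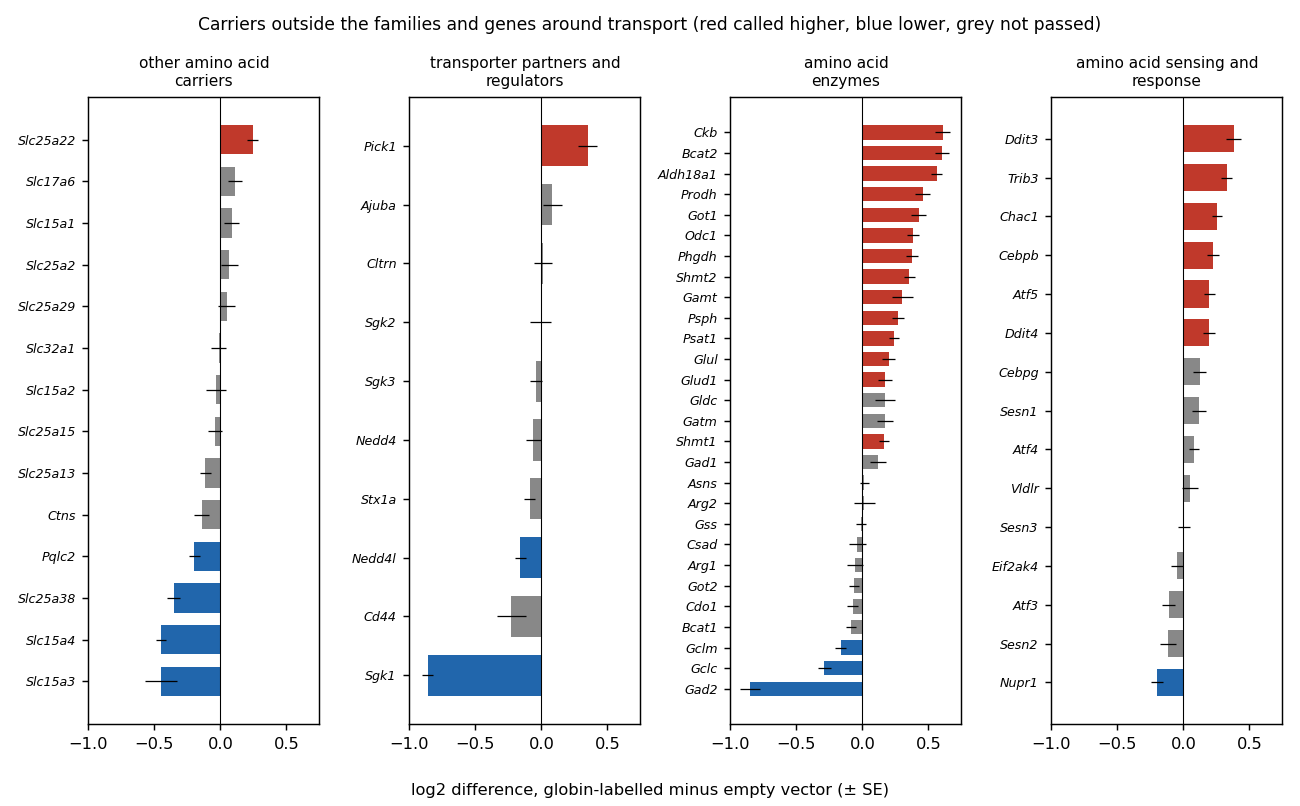
Log2 difference, globin-labelled minus empty vector, with SE, of each measured gene of 4 lists around amino acid transport, one list to a panel, red for called higher, blue for called lower and grey for not passed. The enzymes hold 14 rises and 3 falls, and Sgk1 and Gad2 have the largest falls of their panels.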

How the data were processed

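RNA of 7 samples was measured on Affymetrix mouse 430A 2.0 arrays. Per the submitters' processing notes the tool was RMA, and the authors' deposited values are on the log2 scale. A software version is not given in the sources used here. The method corrects background, evens out the arrays' distributions and summarises probes, so a shift shared by most transcripts is not seen and large folds are compressed. The deposited values were used as they stood. An array carries no read depth, so precision rests on how many arrays there are.

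Of 22690 probe sets, 64 array controls were left out. One gene symbol was given for 20380 of the rest, several for 691, and 1555 were unnamed here. Array symbols matched RefSeq through Entrez identifiers, with 0 differing among the 42 genes. The groups were compared with limma 3.58.1 in R 4.3.3 (lmFit and eBayes with group alone, two-sided, Benjamini-Hochberg adjustment over 22626 probe sets, 9.10 total degrees of freedom). The fit was tested on simulated data before use.

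Every transporter is named. Values on every array were planned for Slc6a13 (called, with a size of at least 0.5), Slc3a2, Slc7a5, Slc7a11, Slc1a5 and Slc38a2, and were added for the other called genes and for Slc7a1, Sgk1 and Gad2. From each list of related genes up to 4 called genes with the smallest p are named. Nupr1 was added as the 1 fall of its list, and Gad1 was added beside Gad2. The members and lists were chosen with earlier results of these data known, and no list was tested. Alternatives were quantile normalization, median centring, a filter on dim probe sets, eBayes trend and robust settings, another probe set per gene or their mean, a replicate block, leaving out arrays, and a minimum of 1.5-fold.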

Additional observations from a re-analysis of the deposited data

Results flagged for a closer look

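In 4 of the 42 transporters 1 of the 4 globin-labelled arrays was flagged as apart from the other 3 by Dixon's criterion at 95%. Where values are continuous, chance meets that criterion in about 1 of 20 groups. All 4 genes were uncalled. Slc1a1 read 6.82 on globin-labelled array 2 and 6.95 on each of the others, Slc1a2 read 6.914 on array 4 and 6.947 on each of the others, and Slc7a9 read 5.809 on array 1 and 5.806 on each of the others. In these 3 genes the other 3 arrays hold equal values to the deposited digits. Such ties meet the criterion however small the gap, so nothing is read from these 3 flags. Slc6a12 read 5.67 on array 4, with the others between 5.48 and 5.50. Equal values on at least 2 arrays of a group were present for 12 of the 42 transporters (28.6%), 10 of them below the 25th percentile of mean signal, and for 24.4% of all probe sets.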

How the results depend on the processing

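Of the 16 called transporters, 10 stayed called in the same direction under each of the 15 alternatives other than the 1.5-fold minimum (Slc1a4, Slc3a2, Slc6a6, Slc6a9, Slc6a13, Slc7a3, Slc38a1, Slc38a2, Slc38a3 and Slc38a10), and none of the 16 turned sign. The other 6 (Slc1a5, Slc6a8, Slc7a6, Slc7a7, Slc7a8 and Slc7a11) lost the call at least once. Slc6a17, Slc7a2 and Slc43a3 passed under at least 1 alternative, and 11 uncalled transporters turned sign without passing. Leaving out 1 array gave 13 to 16 called transporters, and leaving out empty vector array 1 and globin-labelled array 4 together gave 14 (9 higher, 5 lower). With a minimum of 1.5-fold, the calls were 1 transporter (0 higher, 1 lower) and 1159 probe sets, by that setting's construction. Replicate numbers are shared by the groups, but same-numbered arrays deviated apart (correlations -0.31, -0.34 and -0.23), so they were not treated as pairs. The fit with a replicate block, which left out globin-labelled array 4, called 11 transporters (6 higher, 5 lower) and 6337 probe sets, against 16 and 8931.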
